A study of Mus musculus with 4 samples.

Results

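The genes described here are 40 genes of the endoplasmic reticulum (ER) protein folding machinery and of the unfolded protein response, chosen by name and not by their values: chaperones and their cochaperones, disulfide isomerases, the stress sensors, ER-associated degradation, and the translocon, signal peptidase and oligosaccharyltransferase. Of the 18193 genes that could be named on the arrays, 38 were members of this list. The other 2 members, Srp54a and Sec61g, were only on probe sets shared with other symbols and were not analysed here. The cells were mouse CD4 T cells of the spleen that had been cultured for 6 days toward Th17 cells (in IL-23, IL-1beta and IL-6, with IFN-gamma and IL-4 blocked) or toward Th1 cells (in IL-12 and IL-2, with IL-4 blocked), and then sorted by the level of CD30, a TNF receptor family member. The 4 groups were CD30high Th17, CD30low Th17, CD30high Th1 and CD30low Th1 cells, with 1 whole-genome 3′ expression array each. By the study's methods, T cell receptor transgenic cells of the DO11.10 or OTII strain were stimulated with ovalbumin peptide on irradiated splenocytes from which T cells had been removed. Mice were used at 6 to 12 weeks of age, and the sources used here do not say which strain or how many mice stood behind each array. The origin of the cells is given in 2 ways. The labels name CD44low CD62Lhi cells for both CD30high samples and CD44low CD62Llow cells for both CD30low samples, whereas the methods speak of naive CD44low CD62Lhigh cells throughout, so that the CD30 sort and the labelled starting population cannot be told apart.

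Proteins that enter the secretory pathway are threaded through the SEC61 translocon, trimmed by signal peptidase, glycosylated by oligosaccharyltransferase and folded with the help of BiP, GRP94, the lectin chaperones and the disulfide isomerases. When unfolded protein accumulates, the sensors IRE1 (gene Ern1), ATF6 and PERK (gene Eif2ak3) are activated: IRE1 splices Xbp1 mRNA, ATF6 is cleaved into a transcription factor, and PERK phosphorylates eIF2alpha. XBP1 and ATF6 raise transcription of chaperone and degradation genes, and the pathway is best known in lymphocytes from antibody-secreting plasma cells, with activated T cells also using it as they begin to secrete cytokines.

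ATF6 and XBP1 act on their target genes through short promoter elements, and matches to such elements are described here for the list. In all, 3 motifs were searched for on both strands in RefSeq promoter windows (GRCm38.p6, 250 bases before to 50 bases after the annotated start), which were given for 34 of the 40 members. The ER stress response element (ERSE), spelled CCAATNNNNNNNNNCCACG, is bound by NF-Y at CCAAT and by ATF6 at CCACG, and was found in 8 of the 34 members (23.5%) against 37 of 27025 genes (0.137%). The members were Hspa5, Hsp90b1, Calr, Canx, Pdia6, Creld2, Dnajc3 and Syvn1, and Hsp90b1 held 2 sites. ERSE-II, spelled ATTGGNCCACG, was found in Dnajb11 and Herpud1, 2 of 34 members (5.88%), against 12 of all genes (0.0444%). The core of the XBP1 site, TGACGTGG, was found in 0 of the 34 members and in 193 of all genes (0.714%). The windows of Ern1, Eif2ak3 and Edem2 held none of the 3 motifs, and those of Atf6 and Hyou1 were not analysed here. A match describes these letters in this window and does not show binding. The list was chosen by name and holds known targets of the sensors, so its shares beside those of all genes are no test. The 160 bases before the start of Hspa5 (chr2:34771930-34772089, plus strand) hold 1 exact ERSE, whose fixed letters are in capitals, next to a TATA box, and the same capitals mark the fixed letters in the other sites, each with 10 bases on either side. The second Hsp90b1 site and the Creld2 site lie in the antisense direction, so that CCACG reads CGTGG and comes first.
Hspa5 promoter: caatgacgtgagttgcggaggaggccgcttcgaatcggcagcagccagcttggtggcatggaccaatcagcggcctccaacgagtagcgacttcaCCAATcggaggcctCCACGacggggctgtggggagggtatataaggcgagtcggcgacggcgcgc
Hsp90b1, first site, ERSE: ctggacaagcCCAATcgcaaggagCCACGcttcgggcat
Hsp90b1, second site, ERSE: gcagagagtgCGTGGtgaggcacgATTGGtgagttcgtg
Canx, ERSE: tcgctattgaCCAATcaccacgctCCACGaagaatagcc
Creld2, ERSE: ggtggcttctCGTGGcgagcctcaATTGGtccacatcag
Herpud1, ERSE-II: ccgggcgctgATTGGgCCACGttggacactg

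**Figure D1:**
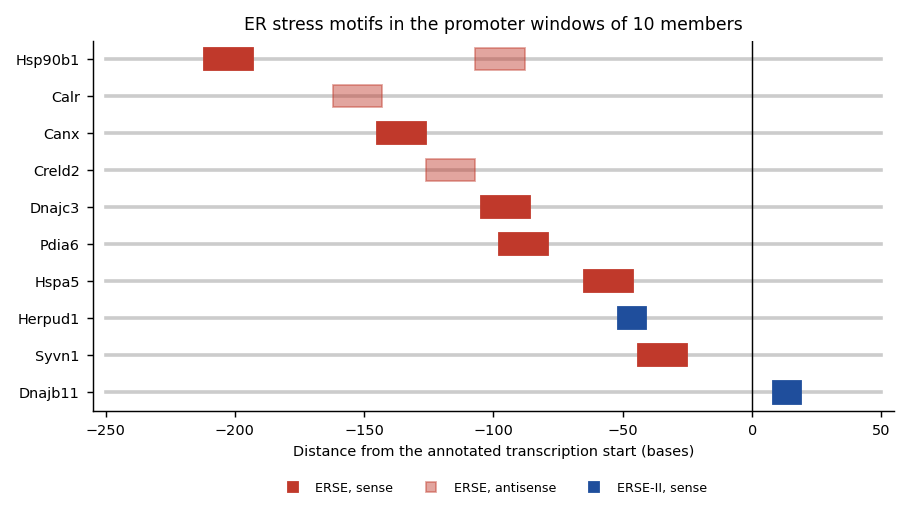
Positions of the ERSE (red, paler where antisense) and ERSE-II (blue) matches in the promoter windows of 10 members, as distance in bases from the annotated transcription start (black line). Of the 11 sites, 10 lie before the start, between positions −212 (Hsp90b1) and −26 (Syvn1), and the Dnajb11 site lies after it.

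No group had a replicate, so no difference between 2 arrays has a replicate error or a p-value, and values are signal intensities (arbitrary units) of the brightest probe set of each gene. A call (higher or lower) needed a ratio of at least 1.5-fold with a signal of 300 or more on one of the 2 arrays, and a 2-fold limit was applied beside it. These limits were taken from the study's own selection. The 4 arrays had been scaled alike, with means between 496.6 and 497 after 2% of probe sets were trimmed from each end, and 40.6% to 41.7% of genes reached 300 on each array. The only repeat measure was that several probe sets can read 1 gene, and their log2 ratios had an SD per probe set of 0.20 for CD30high over CD30low in Th17 cells, 0.24 in Th1 cells, 0.30 for Th17 over Th1 in CD30low cells and 0.33 in CD30high cells (3005 to 3110 genes). In bulk RNA, fewer cells of a type and less RNA per cell cannot be told apart.

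The ER folding machinery was expressed in all 4 populations and varied little between them. All 38 measured members were above 100 on every array, and 37 were above 300 on every array; the exception was Ern1, at 280.8 in CD30low Th17 cells. The highest signal of a member was a median of 1.33 times its lowest over the 4 arrays, against 1.51 times for the 8227 genes that reached 300 on any array and 1.43 times for the 4296 genes whose mean signal reached 1000. This span was at least 1.5-fold for 12 of 38 members (31.6%), against 50.9% and 43.6% of those genes. The widest spans were those of Edem2 (2.58-fold), Ern1 (2.28-fold), Sdf2l1 (2.11-fold) and Eif2ak3 (2.08-fold). The narrowest were those of Ppib, a prolyl isomerase (1.08-fold), and Xbp1 (1.09-fold). CD30high Th17 cells had the highest of the 4 signals for 17 members (44.7%), against 32.6% of the 8227 genes. In the 4 comparisons, 30 members passed the 1.5-fold rule in none, 8 passed it in at least 1 and 3 passed the 2-fold rule.

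**Figure D2:**
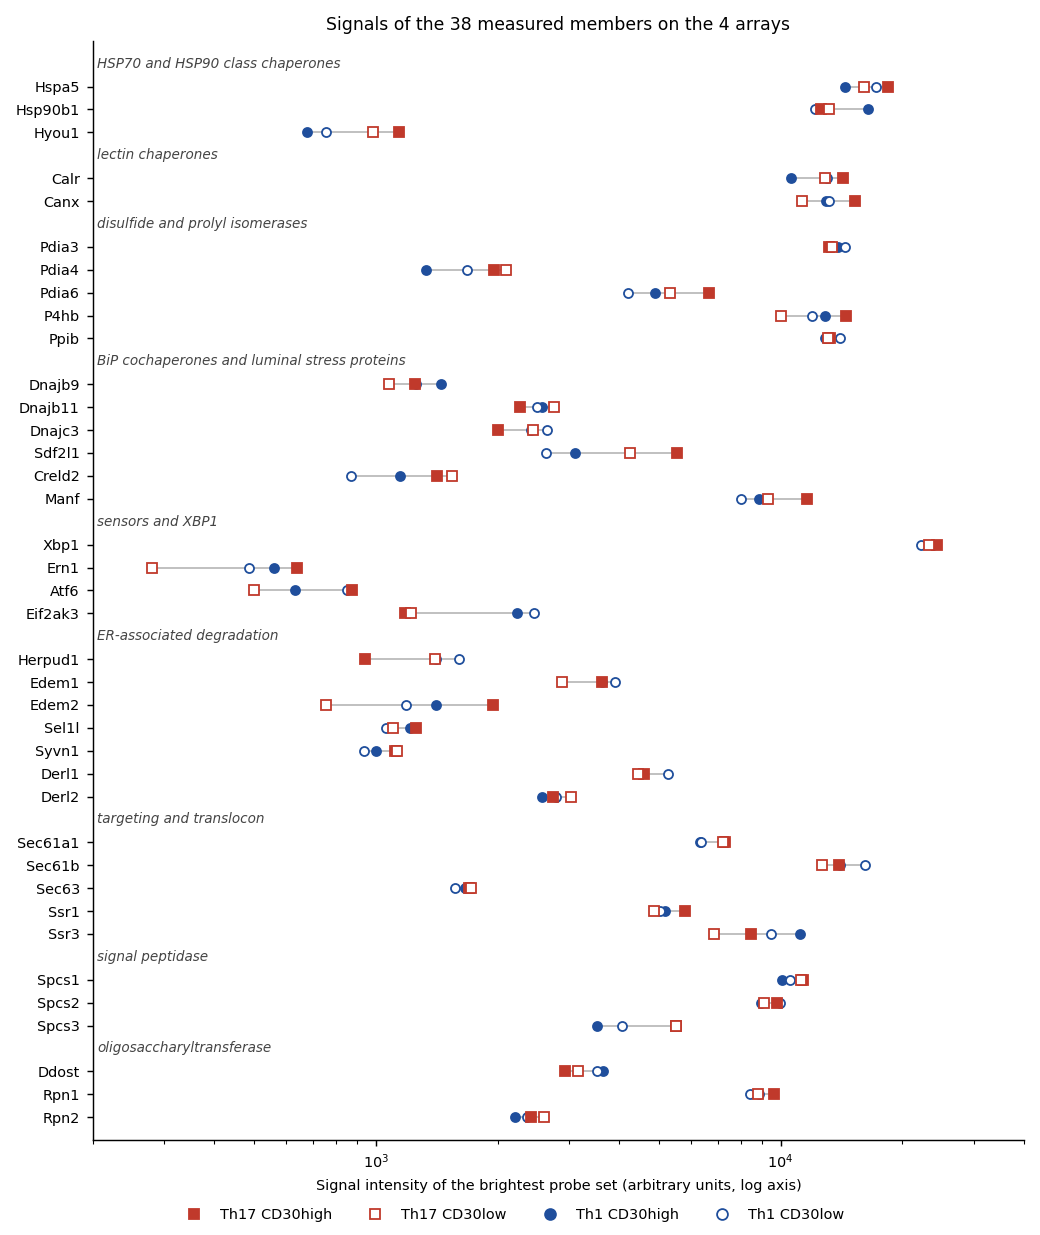
Signal intensity of the brightest probe set (log axis, arbitrary units) of the 38 measured members, in rows by role, with 1 point per array: Th17 in red squares and Th1 in blue circles, filled for CD30high and open for CD30low. Points are to be compared within a row only, since probe sets differ in brightness; most rows are narrow, and Ern1, Edem2, Sdf2l1 and Eif2ak3 are the widest.

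In Th17 cells, mRNA of the sensor genes Ern1 and Atf6 and of the degradation gene Edem2 was higher in CD30high cells. That of the main chaperones differed by less than 1.5-fold on their brightest probe sets. Protein and sensor activity were not measured. Ern1, which encodes the kinase and RNase IRE1, had signals of 640.3 in CD30high Th17 and 280.8 in CD30low Th17 cells, a 2.28-fold difference (log2 ratio 1.19). Edem2, which marks misfolded glycoproteins for degradation by helping to trim their mannoses, had 1945 in CD30high Th17 and 752.9 in CD30low Th17 cells, 2.58-fold (log2 ratio 1.37). Atf6 had 872.3 in CD30high Th17 and 500.5 in CD30low Th17 cells, 1.74-fold (log2 ratio 0.80). Any ratio past the 1.5-fold limit exceeds the probe set SD of 0.20 in this comparison, so that SD is no further support for these 3. These 3 were the only members of 38 to pass the 1.5-fold rule, all higher, against a background of 9.52% of 7786 genes higher and 9.12% lower. Ern1 and Edem2 also passed the 2-fold rule, which 7.6% of genes passed in either direction. The share of members called was thus no larger than that of all genes.

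The Th1 signals of these 3 genes lay between the 2 Th17 signals. Ern1 had 560.9 in CD30high Th1 and 486.6 in CD30low Th1 cells, Atf6 had 631.2 in CD30high Th1 and 848.7 in CD30low Th1 cells, and Edem2 had 1410 in CD30high Th1 and 1188 in CD30low Th1 cells. In all 3 the CD30low Th17 signal was the lowest of the 4 and the CD30high Th17 signal the highest. For Ern1 and Edem2 the widest gap between neighbouring arrays, taken as a ratio, was that above the CD30low Th17 array. In signal units, the widest Edem2 gap was that below the CD30high Th17 array. For Atf6 it was the gap between the 2 Th1 arrays, and on its second probe set (463.2 in CD30high Th1 and 497.8 in CD30low Th1 cells) the gap below the CD30high Th17 array. The other probe sets bear on Atf6 and Ern1 to different degrees. The other probe sets of Atf6, both dimmer, gave log2 ratios of 0.77 (717.1 in CD30high Th17 and 419.3 in CD30low Th17 cells) and 1.03 (252.2 and 123.8 in the same order). A second probe set of Ern1 was dim, at 141.3 in CD30high Th17 and 76.6 in CD30low Th17 cells, and gave 0.50 with the lower signal raised to the floor of 100. The remaining Ern1 probe sets and the second Edem2 probe set stayed below 100 on all 4 arrays, so the Edem2 ratio rests on 1 probe set.

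The mRNAs of PERK and of the transcription factor downstream of IRE1 did not share this pattern. Eif2ak3, which encodes PERK, had 1181 in CD30high Th17 and 1220.4 in CD30low Th17 cells (log2 ratio −0.05). Xbp1 had 24284 in CD30high Th17, 23224 in CD30low Th17, 23818 in CD30high Th1 and 22239 in CD30low Th1 cells, the flattest profile among the sensor genes and Xbp1. The array reads total Xbp1 mRNA by its 3′ end, and how much of it was spliced was not measured.

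On their brightest probe sets, the HSP70 and HSP90 class chaperones and the lectin chaperones stayed within 1.5-fold in Th17 cells. Hspa5, which encodes BiP, the chaperone that holds the sensors inactive, had 18427 in CD30high Th17 and 16079 in CD30low Th17 cells (log2 ratio 0.20). Hsp90b1, which encodes GRP94, had 12586 in CD30high Th17 and 13136 in CD30low Th17 cells (−0.06). Hyou1, a large HSP70 relative that exchanges nucleotide on BiP, had 1143 and 985.8 in the same order (0.21), but its second probe set had 192.5 and 348.4 (−0.86, past 1.5-fold in the other direction). The calcium-binding lectin chaperones Canx and Calr had ratios of 0.43 and 0.15. All 3 probe sets of Canx were higher in CD30high Th17 cells, with log2 ratios of 0.43, 0.53 and 0.61, the last of them past 1.5-fold. Among the isomerases the largest ratio was that of P4hb, protein disulfide isomerase, at 14516 in CD30high Th17 and 10001 in CD30low Th17 cells (0.54), while Pdia3, Pdia4, Pdia6 and Ppib lay between −0.10 and 0.32.

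The BiP cochaperones and luminal stress proteins ranged from −0.29 (Dnajc3, a J-domain cochaperone also known as p58IPK) to 0.39 (Sdf2l1, which keeps unfolded clients on BiP) in Th17 cells. Herpud1, a membrane component of the degradation complex and a classical ER stress target, was just short of the 1.5-fold limit in the other direction, at 941.4 in CD30high Th17 and 1399.5 in CD30low Th17 cells (log2 ratio −0.57). Its second probe set went the opposite way, at 524.5 in CD30high Th17 and 407.9 in CD30low Th17 cells (0.36), so no direction can be given for it in this comparison. The other degradation genes, Edem1, Sel1l, Syvn1, Derl1 and Derl2, had ratios between −0.15 and 0.33. The translocon genes (Sec61a1, Sec61b, Sec63, Ssr1 and Ssr3) ranged from −0.02 to 0.31, signal peptidase (Spcs1, Spcs2 and Spcs3) from −0.00 to 0.11, and oligosaccharyltransferase (Ddost, Rpn1 and Rpn2) from −0.11 to 0.13. Over all 38 members the median log2 ratio was 0.09, against 0.02 over 9862 genes and 0.01 over the 7786 reaching 300. Of the members, 24 (63.2%) had ratios above 1, against 52.1% of the 9862 genes. The median size of the log2 ratio, regardless of sign, was 0.15 for members and 0.24 for genes reaching 300.

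The 10 members with an ERSE or ERSE-II in the window, among the 32 with both a window and a value, had a median log2 ratio of −0.04 (−0.57 to 0.43) between CD30high and CD30low Th17 cells. The 22 without either had a median of 0.12 (−0.15 to 1.37), Ern1 and Edem2 among them. In Th1 cells the medians were 0.01 with and 0.04 without a site. Between Th17 and Th1 cells, members with a site had the higher medians, 0.04 against −0.10 in CD30low and 0.20 against 0.07 in CD30high cells. The SD of a single probe set was 0.30 and 0.33 in these 2 comparisons. Among the carriers, Hspa5 and Hsp90b1 changed sign on their second probe sets in CD30high cells. None of these gaps between medians was tested. Of the carriers, only Creld2 passed the 1.5-fold rule in any comparison.

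**Figure D3:**
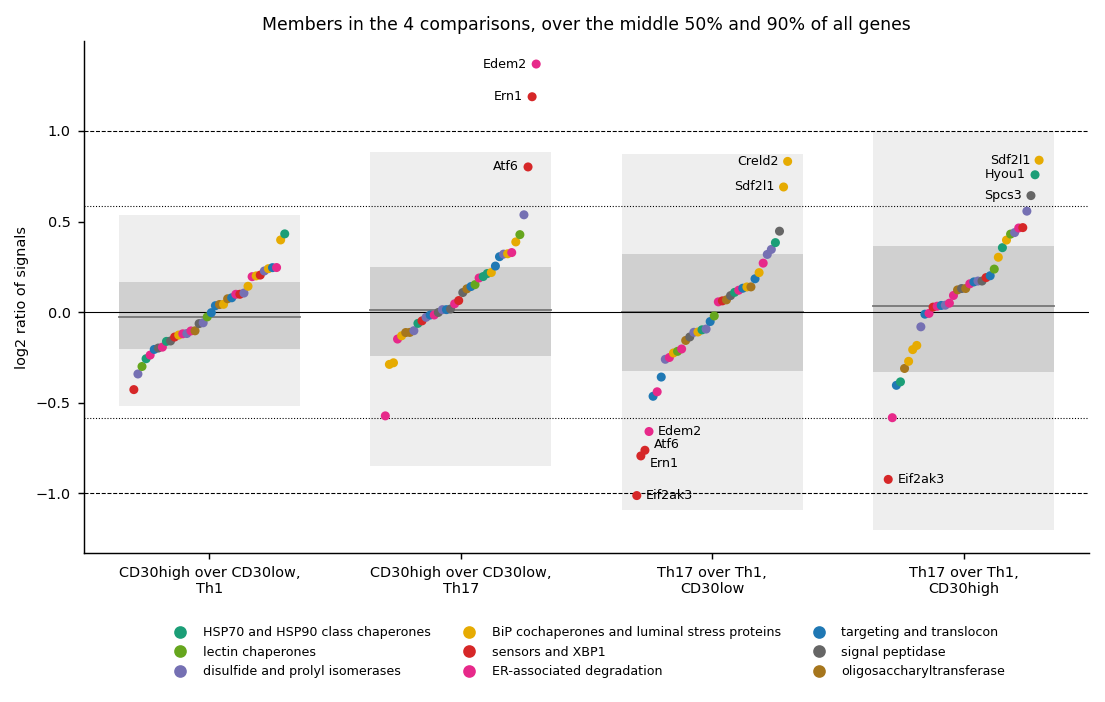
log2 ratios of the 38 members in the 4 comparisons (points, coloured by role, in rising order from left to right), over the middle 50% (dark grey) and middle 90% (light grey) of all genes reaching 300, with their median as a grey line. Dotted lines mark 1.5-fold and dashed lines 2-fold; members past 1.5-fold are named, and the Th1 column has none.

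In Th1 cells, no member passed the 1.5-fold rule between CD30high and CD30low cells, where 4.04% of 7813 genes were higher and 3.57% lower (1.28% past 2-fold in either direction). The largest ratios were those of Hsp90b1 and Atf6. Hsp90b1 had 16428 in CD30high Th1 and 12175 in CD30low Th1 cells (log2 ratio 0.43), and its second probe set gave 0.26. Atf6 had 631.2 in CD30high Th1 and 848.7 in CD30low Th1 cells (−0.43), whereas its other probe sets gave −0.10 and −0.04. Creld2, a luminal stress protein, had 1146 in CD30high Th1 and 869.4 in CD30low Th1 cells (0.40). Ern1 (0.20), Edem2 (0.25), Eif2ak3 (−0.14), Xbp1 (0.10), Hyou1 (−0.16) and Hspa5 (−0.26) were all within 1.5-fold. For Hspa5, at 14397 in CD30high Th1 and 17201 in CD30low Th1 cells, a second probe set gave 0.22, so the direction differed between probe sets. The members were split evenly, with 18 ratios above 1 and 20 below. Their median log2 ratio was −0.01, against 0.0003 over 10351 genes and −0.03 over the 7813 reaching 300.

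The CD30 ratios of the 2 lineages come from 4 different arrays and can be set side by side. The log2 ratio in Th17 cells minus that in Th1 cells was largest for Atf6 (1.23), Edem2 (1.12) and Ern1 (0.98), and lowest for Creld2 (−0.53) and Hsp90b1 (−0.49). No member passed 1.5-fold in opposite directions in the 2 lineages, and with 1 array per group the difference was not tested. Its median was 0.09 over the members and 0.02 over 8227 genes, and 26 members (68.4%) lay above 0, against 52.4% of genes. The sign of the ratio was the same in both lineages for 20 of 38 members (52.6%), 12 of them higher and 8 lower in CD30high cells in both, against 59.2% of genes.

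**Figure D4:**
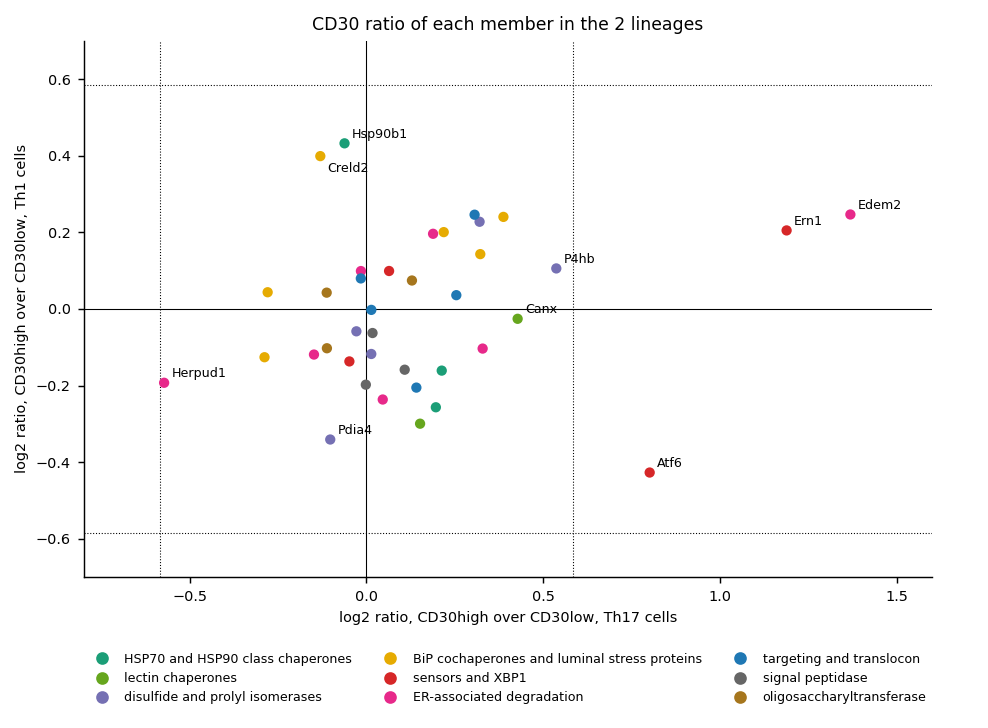
log2 ratio of CD30high over CD30low cells for each of the 38 members in Th17 cells (horizontal axis) and in Th1 cells (vertical axis), coloured by role; dotted lines mark 1.5-fold. Edem2, Ern1 and Atf6 lie to the right of the line at 1.5-fold in Th17 cells, and no member passes a line on the Th1 axis.

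Between the lineages, Eif2ak3 and Sdf2l1 were called in both CD30 gates, Eif2ak3 lower and Sdf2l1 higher in Th17 cells. Eif2ak3 had 1220.4 in CD30low Th17 and 2461 in CD30low Th1 cells, a 2.02-fold difference (log2 ratio −1.01). In the other gate it had 1181 in CD30high Th17 and 2238 in CD30high Th1 cells, 1.90-fold (−0.92). With the arrays centred on their medians, which moved the median of all genes to 0.40, the second ratio was −0.50 and no longer passed the rule. The 2 Th17 arrays and the 2 Th1 arrays did not overlap, and within a lineage the signals differed by 1.10-fold or less. Both ratios exceeded the probe set SD of their comparison, as any ratio past 1.5-fold does. They rest on 1 probe set, since the other 2 of Eif2ak3 stayed below 100. Sdf2l1 had 5563 in CD30high Th17 and 3110 in CD30high Th1 cells (1.79-fold, log2 ratio 0.84), and 4251 in CD30low Th17 and 2633 in CD30low Th1 cells (1.61-fold, 0.69). Here too both Th17 signals lay above both Th1 signals, and Sdf2l1 had 1 probe set.

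In CD30low cells, 6 members passed the 1.5-fold rule. Creld2 and Sdf2l1 were higher in Th17 cells (2 members, against 11.7% of 7857 genes). Eif2ak3, Ern1, Atf6 and Edem2 were lower (4 members, against 13.3% of genes). Only Eif2ak3 passed the 2-fold rule, which 9.35% of genes passed in either direction. Creld2 had 1548 in CD30low Th17 and 869.4 in CD30low Th1 cells (1.78-fold, log2 ratio 0.83). The log2 ratios of Ern1 (−0.79), Atf6 (−0.76) and Edem2 (−0.66) use the same low CD30low Th17 array as the CD30 comparison above and are not separate evidence of it. The second probe set of Atf6 gave −0.25 here. Hspa5 (−0.10), Hsp90b1 (0.11) and Xbp1 (0.06) were close to level, although the second probe set of Hsp90b1 gave 0.60, past 1.5-fold. Second probe sets also passed 1.5-fold for Herpud1 (−1.38, against −0.20 on the brightest) and Sel1l (−0.67, against 0.06). The median over the members was −0.04, against −0.02 over 9994 genes and 0.0006 over the 7857 reaching 300. The median size of the log2 ratio was 0.21, against 0.32.

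In CD30high cells, 4 members passed the rule between the lineages, and 17 with median centring of the arrays. Sdf2l1, Hyou1 and Spcs3 were higher in Th17 cells (3 members, against 13.6% of 7979 genes), and Eif2ak3 was lower (1 member, against 14.9%). No member passed the 2-fold rule, which 11.8% of genes passed in either direction. Spcs3, a subunit of signal peptidase, had 5512 in CD30high Th17 and 3529 in CD30high Th1 cells (1.56-fold, log2 ratio 0.64). Its ratio in CD30low cells was 0.45, at 5518 in CD30low Th17 and 4047 in CD30low Th1 cells. Hyou1 had 1143 in CD30high Th17 and 675.6 in CD30high Th1 cells (1.69-fold, 0.76), but its second probe set, at 192.5 and 312.6 in the same order, gave −0.70. No direction can be given for Hyou1. Herpud1 fell just short of the limit at −0.58, with 941.4 in CD30high Th17 and 1409 in CD30high Th1 cells. Its second probe set, at 524.5 and 845.6 in the same order, gave −0.69, past 1.5-fold. In CD30low cells too, both Herpud1 probe sets were lower in Th17 cells (−0.20 and −1.38). On their brightest probe sets, Atf6 (0.47), Edem2 (0.46) and Ern1 (0.19) had ratios above 1 in CD30high cells but within 1.5-fold. The second probe set of Atf6, at 717.1 in CD30high Th17 and 463.2 in CD30high Th1 cells, gave 0.63, past 1.5-fold. Hspa5 (0.36 and, on its second probe set, −0.26) and Hsp90b1 (−0.38 and 0.48) disagreed between probe sets, and Xbp1 was level (0.03). Of the members, 27 (71.1%) had ratios above 1, against 48.8% of 10445 genes, and the median was 0.13, against −0.01. Every member reached 300, whereas the 10445 genes include dimmer ones. Over the 7979 genes reaching 300 the median was 0.04.

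**Figure D5:**
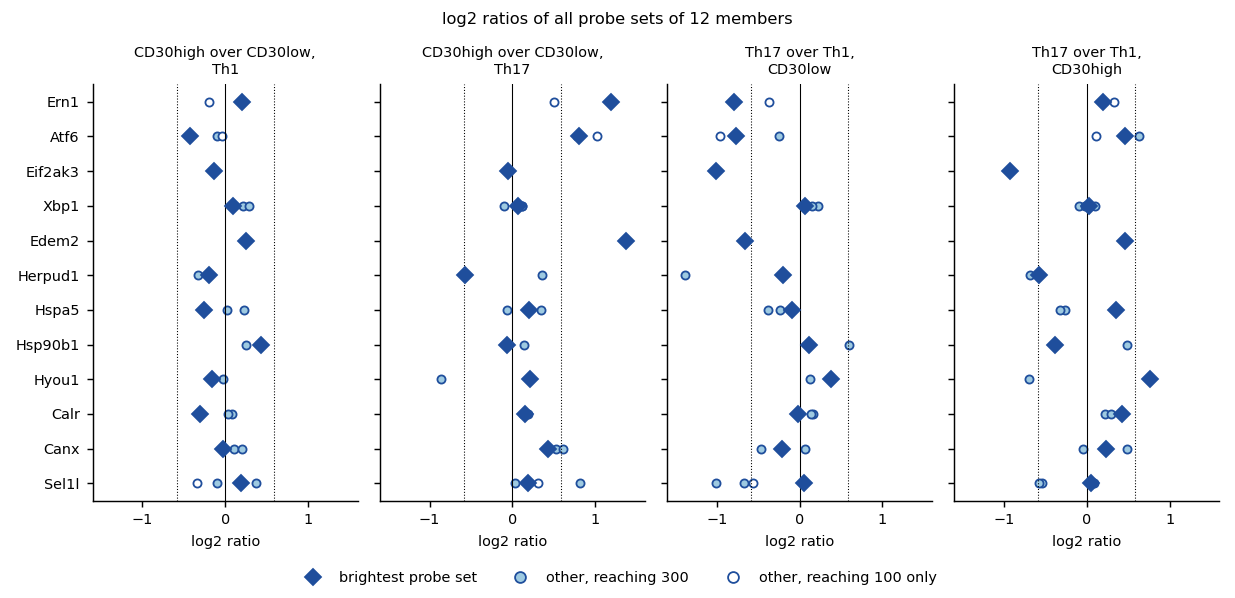
log2 ratios of every probe set reaching 100 on any array for 12 members, in the 4 comparisons; diamonds are the brightest probe set of a gene, filled circles other probe sets reaching 300 and open circles those reaching only 100, with dotted lines at 1.5-fold. The probe sets of Atf6 lie together in the CD30 comparison of Th17 cells (0.77 to 1.03), whereas those of Hyou1 and Hsp90b1 fall on opposite sides of 0 in the lineage comparison of CD30high cells.

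Of the 38 members, 22 had a second probe set that reached 300 in every comparison. The sign agreed between the 2 brightest probe sets for 15 of the 22 in CD30high over CD30low Th17 cells, and for 13 of the 22 in the Th1 comparison, where most ratios were small. Between Th17 and Th1 cells it agreed for 17 of 22 in CD30low and 13 of 22 in CD30high cells. Probe sets of 1 gene can read different transcripts or 3′ ends, and which transcript each of them reads was not tested.

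Other ER genes, and chaperones of the cytosol and mitochondria, from lists written beside the members, were few among the calls between CD30 gates. In Th1 cells, 0 of 90 genes reaching 300 in 5 further lists passed the 1.5-fold rule between CD30high and CD30low cells, against 7.6% of all genes. The lists were ER folding and quality control (21 genes), ER-associated degradation (16), targeting, translocation and glycosylation (20), stress signalling (13), and cytosolic and mitochondrial chaperones (20). In Th17 cells, 4 of 89 genes of these lists passed it (4.49%, against 18.6% of all genes in either direction), all higher in CD30high cells. Creb3l2, an ER-anchored transcription factor of the same family type as ATF6, had 527.4 in CD30high Th17 and 234.0 in CD30low Th17 cells (2.25-fold, log2 ratio 1.17), with 261.4 in CD30high Th1 and 241.9 in CD30low Th1 cells. Mbtps2, the site-2 protease that releases ATF6 from the membrane, had 1649 in CD30high Th17 and 1088 in CD30low Th17 cells (0.60). Ero1a, the oxidase that recharges protein disulfide isomerase, had 8637 and 5462 in the same order (0.66). Hspa9, the mitochondrial HSP70, had 6265 and 4136 (0.60). The effectors of the PERK branch stayed within 1.5-fold, with log2 ratios of 0.39 for Atf4, 0.17 for Ddit3 (CHOP) and 0.07 for Ppp1r15a (GADD34).

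Between the lineages, 16 of 90 genes of these lists passed the rule in CD30low cells (17.8%, against 25% of all genes) and 21 of 91 in CD30high cells (23.1%, against 28.4%), so these counts lay below the background too. Of 21 folding and quality control genes, 1 was higher and 4 lower in Th17 cells in each gate. Qsox1 and Prdx4, enzymes of disulfide formation, were lower in both, with log2 ratios of −1.07 and −0.85 in CD30low and −0.87 and −0.76 in CD30high cells. Of the degradation genes, Ubxn4 was higher in both gates (0.97 in CD30low and 0.65 in CD30high cells), and Aup1 (−0.83 and −0.78) and Os9 (−0.72 and −0.69) were lower. The pro-apoptotic gene Bbc3 (PUMA), in the stress signalling list, had 113.3 in CD30low Th17 and 848.9 in CD30low Th1 cells (log2 ratio −2.91), and 152.9 in CD30high Th17 and 768.5 in CD30high Th1 cells (−2.33). Crebrf, a regulator of CREB3, was also lower in both gates (−0.98 and −0.65). In the same list, Creb3l2 (1.01) and Traf2 (0.63) were called higher in Th17 cells, in the CD30high gate only. Of the translocation genes, Ssr4, a subunit of the translocon-associated complex, was lower in both (−0.78 and −0.62). Krtcap2 (−0.72) was lower in CD30low cells only. In CD30high cells only, Sec11c (−0.68) and Srp68 (−0.66) were lower and Stt3b (0.60) was higher. Of 20 cytosolic and mitochondrial chaperones, 4 were called in each gate (20%), all higher in Th17 cells, among them Hsph1 (0.75 in CD30low and 1.03 in CD30high cells) and Cct3 (0.66 and 0.87).

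Cell identity was checked on the same arrays. Of the 8 CD4 T cell markers, 6 were named in the annotation and all 6 were above 100 on every array. Their summed signal was 42850 in CD30high Th17 and 53174 in CD30low Th17 cells, and 57372 in CD30high Th1 and 71216 in CD30low Th1 cells, so it was lower in CD30high cells of both lineages and lower in Th17 than in Th1 cells. Il17a had 14443 in CD30high Th17 and 1398 in CD30low Th17 cells, against 49.4 and 37.7 in CD30high and CD30low Th1 cells. Ifng had 76.0 and 106.4 in CD30high and CD30low Th17 cells, against 3423 and 2506 in CD30high and CD30low Th1 cells. Of the 9 Th1 and Th17 markers listed, 6 were named, and not all separated the lineages this way. In CD30high and CD30low Th17 cells, then CD30high and CD30low Th1 cells, Tbx21 had 243.1, 281.5, 2352 and 2190. Il12rb2 had 280.6, 138.4, 393.9 and 269.0 in that order. Rora had 2482, 951.0, 1159 and 963.5, and Ccr6 had 332.8, 136.2, 172.3 and 49.2. Tnfrsf8, which encodes CD30, was dim, at 132.0 in CD30high Th17 and 34.9 in CD30low Th17 cells, and at 51.1 and 13.3 in CD30high and CD30low Th1 cells. Of 5 dendritic cell markers named, none reached 100 on any array.

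Other markers moved with the CD30 gate of the Th17 cells, where Ern1, Atf6 and Edem2 were called, and their part in those results was not tested. The summed signal of the 8 myeloid markers was 2351 in CD30high Th17 and 7637 in CD30low Th17 cells, against 522.5 and 403.9 in CD30high and CD30low Th1 cells. Most of it was S100a8, at 1209.9 in CD30high Th17 and 5192 in CD30low Th17 cells. Of the 6 myeloid markers that reached 100 on either Th17 array, 3 were lower in CD30high Th17 cells (S100a8, S100a9 and Lyz2) and 3 were higher (Adgre1, at 158.4 and 64.8, Csf1r, at 130.1 and 30.3, and Cd14, at 104.3 and 26.9). Of the 10 stromal markers, Lum and Dcn were higher, at 6697 and 967.2 in CD30high Th17, and 768.0 and 127.1 in CD30low Th17 cells. Col1a1, Col1a2, Col3a1, Pdgfra, Pdgfrb and Fn1 stayed below 100 on all 4 arrays, as did Sparc on both Th17 arrays, and Vim was level (log2 ratio 0.10). The B and plasma cell list, which matters here because plasma cells are rich in ER, had 9 genes named, of which 4 reached 100 in CD30high Th17 and 3 in CD30low Th17 cells, with summed signals of 1775 and 1313. Within it, Mzb1, an ER-resident cochaperone of GRP94 in B cells, had 734.4 in CD30high Th17 and 303.6 in CD30low Th17 cells, while Jchain had 137.4 and 303.3. Of 5 NK and CD8 markers named, 3 reached 100, with a summed list signal of 742.8 in CD30high Th17 and 1013 in CD30low Th17 cells, against 7062 and 9345 in CD30high and CD30low Th1 cells, and their part in the lineage differences was not tested. Klrd1 had 172.8 in CD30high Th17 and 354.7 in CD30low Th17 cells, against 4360.1 and 6199 in CD30high and CD30low Th1 cells, while Cd8a and Ncr1 stayed below 100 on all arrays. The 2 lineages also differed in a Y-linked transcript, Eif2s3y, at 9.39 and 1.41 in CD30high and CD30low Th17 cells and 1640 and 1784 in CD30high and CD30low Th1 cells. Xist, expressed from the X chromosome in females, was high on all 4 arrays. It had 22613 and 22350 in CD30high and CD30low Th17 cells, and 16223 and 14620 in CD30high and CD30low Th1 cells. The Th1 arrays thus held both transcripts, and the sex of the mice was not given in the sources used here. Lineage and the sex make-up of the cells cannot be told apart in the Eif2ak3 and Sdf2l1 differences.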

How the data were processed

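The authors deposited linear intensity values, 1 signal per probe set on each of 4 arrays. The methods name the GeneChip Operating Software as their source, and the submitters' notes name Affymetrix Expression Console; version, summary algorithm and scaling target were not given in the sources used here. The table held 45037 probe sets and no detection calls. Symbols came from the platform annotation, updated through gene identifiers (34741 of 34945 probe sets with a single symbol matched; 932 with several symbols and 9160 unnamed were not used). The brightest probe set by mean signal stood for each gene, and signals below 100 were raised to 100 before log2 ratios were taken. A member counted as measured at 100 in either array. No p-value was computed, since each group had 1 array.

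The members and lists were chosen with earlier results of these data known. The text gives full values for members past 1.5-fold and for Hspa5, Hsp90b1, Xbp1, Ern1, Atf6 and Eif2ak3, and of other lists at most 4 genes a comparison past 1.5-fold. Atf4, Ddit3, Ppp1r15a and the markers were named beyond that rule, after their values were seen. Promoter windows came from RefSeq. The planned look at protein ends was not analysed here. The fold rule and scalings were tested on simulated data. Alternatives covered scaling, floor, probe set choice and signal limit. The number of arrays limits the precision. Python 3.11.15, numpy 2.4.6, pandas 2.3.3 and matplotlib 3.10.9 were used.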

Additional observations from a re-analysis of the deposited data

How the results depend on the processing

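The median log2 ratio of the members and the counts of members called were recomputed under 7 alternatives. Median centring of the arrays shifted the median of all genes by −0.05 and −0.23 in the CD30 comparisons of Th17 and Th1 cells, and by 0.42 and 0.23 in the lineage comparisons of CD30high and CD30low cells. Under it the members' median between CD30high Th17 and CD30high Th1 cells was 0.55, where that of all genes was 0.40, with 17 members called at 1.5-fold and 3 at 2-fold, against 4 and 0 as reported. In Th1 cells it called 1 member between CD30 gates, Atf6, against 0. The median signal of every array was below the floor of 100, so this alternative moves every expressed gene together.

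In the CD30 comparison of Th17 cells, a signal limit of 1000 left 1 member called at 1.5-fold and 1 at 2-fold (Edem2), since Ern1 and Atf6 are dimmer, and the mean over all probe sets left 1 at 2-fold. The second probe set called 2 members at 2-fold between CD30low Th17 and CD30low Th1 cells, against 1. The remaining counts stayed within 1.5 times those reported. The remaining medians moved by less than the SD of a single probe set. That SD is wider than any members' median as reported, so it does not show them stable. Median centring took the members' median from −0.01 to −0.25 between CD30 gates in Th1 cells. Between lineages in CD30low cells it went from −0.04 to 0.20, and to 0.06 with quantile normalization. The median CD30 difference, Th17 minus Th1, went from 0.09 to 0.27 with median centring. Of the 13 calls of single members, 5 held under all 7 alternatives, and 12 of 91 recomputed values no longer passed the rule. The 5 were Edem2 in Th17 cells, Creld2 and Eif2ak3 between CD30low cells, and Sdf2l1 in both gates. Each rests on 1 probe set above 100, so the alternatives of probe set choice and floor could not have ended these calls. Median centring ended the CD30low calls of Ern1 (−0.55), Atf6 (−0.52) and Edem2 (−0.42) and the CD30high call of Eif2ak3 (−0.50) between the lineages. The mean of probe sets ended those of Ern1 (−0.58) and Hyou1 (0.03), the second probe set that of Atf6 (−0.25), and quantile normalization that of Spcs3 (0.57). Both Sdf2l1 calls held throughout. Among the single calls, only Hyou1 turned its sign, to −0.70 on its second probe set between CD30high Th17 and CD30high Th1 cells. With 1 array per group, an effect of a single array cannot be told apart from one of its group, and the precision between probe sets says nothing of the spread between cultures or mice.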
